A study of Rattus norvegicus with 6 samples.

Results

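The Ifitm genes encode interferon-induced transmembrane proteins, and 5 of them, Ifitm1, Ifitm2, Ifitm3, Ifitm6 and Ifitm10, were followed in rat prostate under excess sex hormone. They were taken by symbol from a table of 32883 genes. The family was picked with the hormone against control values already known, Ifitm6 having one of the highest fold changes of the table. Its own differences between the groups are therefore given as a description, without p-values, and whether a member passed a threshold is likewise a description that supports nothing. RNA sequencing covered 6 libraries of prostate tissue of Rattus norvegicus, 3 from hormone rats and 3 from control rats. Hormone rats had 4 subcutaneous pellets, with 25 mg of testosterone plus 2.5 mg of estradiol in each, left in place for 4 weeks. Control rats were given the incision and staples alone. The sources used here do not give strain, age or gland lobe, nor whether each tissue came from its own animal, so a p-value reflects the spread among these libraries only.

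Ifitm proteins are small membrane proteins that hinder enveloped viruses from fusing with a cell. IFITM3 acts mainly in endosomes and lysosomes and IFITM1 mainly at the cell surface, as described in human cells. Interferons bind receptors that act through Jak kinases and Stat factors, and the Stat and Irf factors bind short promoter elements of genes such as Ifitm1, Ifitm2 and Ifitm3. In mice, Ifitm6 is known from macrophages and Ifitm5 from bone-forming cells. Ifitm10 belongs to the same family by sequence.

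Promoter windows show how the members differ next to their start sites, and 4 of the 5 members had a window in RefSeq (build GRCr8), 6 windows in all because Ifitm10 has 3 alternative starts. Each window runs from 250 bases before the start to 50 after it, 5′ to 3′ on the gene's strand, which is the minus strand of chromosome 1 for all of them. Capitals mark a match to the interferon-stimulated response element, searched as GAAA, any 2 bases and GAAA, or to the gamma-activated site, searched as TTCNNNGAA, on both strands. The windows of Ifitm2 (chr1:205482299-205482598), Ifitm3 (chr1:205541709-205542008) and Ifitm6 (chr1:205547871-205548170) are shown because these members had the family's highest levels in hormone libraries.
Ifitm2: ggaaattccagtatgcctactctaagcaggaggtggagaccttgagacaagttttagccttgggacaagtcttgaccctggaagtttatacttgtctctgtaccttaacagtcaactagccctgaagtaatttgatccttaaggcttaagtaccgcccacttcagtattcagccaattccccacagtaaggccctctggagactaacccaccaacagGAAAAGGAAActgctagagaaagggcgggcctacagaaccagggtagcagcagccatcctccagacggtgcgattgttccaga
Ifitm3: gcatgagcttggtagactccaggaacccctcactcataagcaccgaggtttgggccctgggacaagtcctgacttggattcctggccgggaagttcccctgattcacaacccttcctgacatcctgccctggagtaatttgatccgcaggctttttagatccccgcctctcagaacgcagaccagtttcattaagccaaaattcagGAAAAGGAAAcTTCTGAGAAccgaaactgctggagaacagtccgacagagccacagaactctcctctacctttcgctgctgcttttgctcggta
Ifitm6: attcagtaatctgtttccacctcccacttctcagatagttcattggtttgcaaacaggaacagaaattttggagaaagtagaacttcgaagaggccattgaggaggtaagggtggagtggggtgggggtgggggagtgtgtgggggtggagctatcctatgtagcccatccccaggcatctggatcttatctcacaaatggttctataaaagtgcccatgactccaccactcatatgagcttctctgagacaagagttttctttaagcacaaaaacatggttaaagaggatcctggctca
The same 10 letters, GAAAAGGAAA, matched the response element at positions -33 to -24 from the start of Ifitm2 and at -44 to -35 of Ifitm3. In Ifitm3 a gamma-activated site match, TTCTGAGAA, followed at -33 to -25 and did not overlap it. The Ifitm6 window and the 3 windows of Ifitm10 held neither motif in these letters. Among all 33469 windows of the table, 3.92% held the response element and 8.87% the gamma-activated site. Among 42 windows of 40 other interferon-induced genes, 71.4% held the response element and 23.8% the gamma-activated site. The palindromic androgen and estrogen response elements, searched on both strands as AGAACA with TGTTCT and GGTCA with TGACC at a spacing of 3 bases, were found in 0.0149% and 0.0269% of all windows and in 0 of the 6 member windows. In global alignments the windows of Ifitm2 and Ifitm3 were 57.9% identical. That of Ifitm6 was 46.6% identical to Ifitm2 and 45.5% to Ifitm3. The 3 windows of Ifitm10 were 44.6% to 52.3% identical to those of Ifitm2, Ifitm3 and Ifitm6, a range that holds both values of Ifitm6. A motif match is a match of letters, and no binding was measured.

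Ifitm6 was low in the family in control prostates, where its range overlapped that of Ifitm10, the lowest member, and near the top in hormone prostates. Its level was 989, 2241 and 1155 FPKM in hormone libraries 1 to 3, against 9.93, 14.3 and 18.8 FPKM in control libraries 1 to 3. FPKM, the authors' count scaled for gene length and library total, allows levels to be compared between genes. Every hormone library lay far above every control library, and hormone 2 was the highest. The counts behind these levels were 4544, 9201 and 4573 in hormone libraries and 37, 65 and 84 in control libraries. In CPM, counts scaled by TMM to a common library size, Ifitm6 averaged 439 ± 201 in hormone libraries and 3.99 ± 1.38 in control libraries (SD, n = 3 per group). The log2 fold change, hormone minus control, was 6.77 ± 0.44 (SE), a ratio of 109. It ranked 7 from the top among the 14003 genes tested. In bulk tissue, more cells of a type and more RNA per cell cannot be told apart.

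Ifitm3 was the most abundant member on average in both groups. It had 1752, 1387 and 1581 FPKM in hormone libraries, against 1094, 705 and 712 FPKM in control libraries. The groups did not overlap, and control 1 stood above the other 2 controls. In CPM it averaged 1151 ± 131 in hormone libraries and 559 ± 129 in control libraries (SD, n = 3 per group). The log2 fold change was 1.04 ± 0.20 (SE). Without control 2, control 3 or any 1 of the hormone libraries Ifitm3 no longer passed edgeR's threshold, with log2 fold changes between 0.94 and 1.14.

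Ifitm2 hardly differed in level between the groups. It had 442, 476 and 478 FPKM in hormone libraries and 541, 423 and 381 FPKM in control libraries. The control values spread on both sides of the hormone values, and the log2 fold change was 0.19 ± 0.14 (SE). Ifitm2 and Ifitm3 both carried the response element match, and their log2 fold changes were 0.19 and 1.04.

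Ifitm1 varied between libraries of the same group. It had 88.6, 38.5 and 56.7 FPKM in hormone libraries and 64.9, 29.4 and 27.3 FPKM in control libraries. Control 1 lay above hormone libraries 2 and 3, so the groups overlapped. The log2 fold change was 0.74 ± 0.39 (SE), and it was 0.40 without hormone 1 and 1.21 without control 1.

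Ifitm10 was the member whose mean was lower in hormone prostates. It had 3.11, 3.03 and 4.14 FPKM in hormone libraries, against 13.3, 6.27 and 8.71 FPKM in control libraries. The groups did not overlap, although the counts were low, from 41 to 54 in hormone libraries and from 94 to 163 in control libraries. The log2 fold change was -1.32 ± 0.31 (SE), and it did not pass edgeR's threshold.

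**Figure D1:**
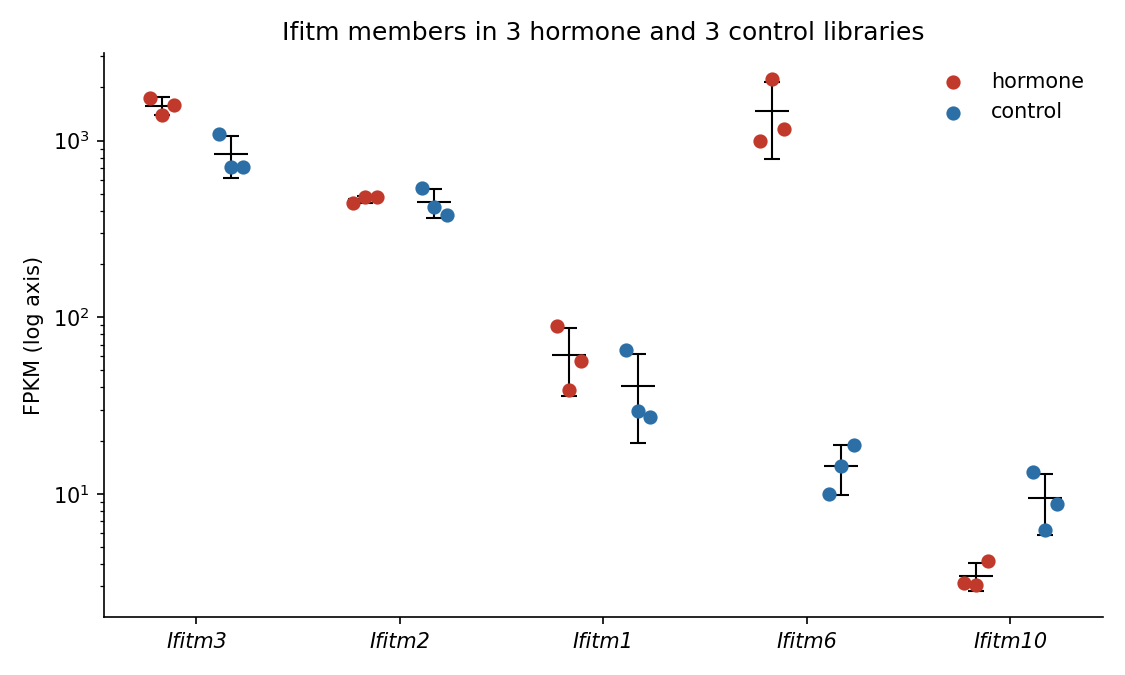
FPKM of each Ifitm member on a log axis, with a point per library (red hormone, blue control), a bar at the mean and whiskers of 1 SD (n = 3 per group). Ifitm6 lay between 989 and 2241 FPKM in hormone libraries and between 9.93 and 18.8 FPKM in control libraries, while Ifitm2 overlapped between the groups.

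Read by edgeR's quasi-likelihood test with an adjusted p under 0.05, 2 of the 5 members were called higher, Ifitm6 and Ifitm3, and 0 were called lower. Of all genes tested, 3.27% were called, 2.39% higher and 0.886% lower. The values of the groups did not overlap for 3 of the 5 members and for 31.3% of all genes tested. Because the family was picked on this contrast, nothing is read from these counts. DESeq2 also called Ifitm10 lower, at a log2 fold change of -1.31, in a fit that called 6.48% of genes higher and 4.42% lower. Limma on log2(FPKM + 1), which called 1.17% higher and 0.856% lower, called Ifitm6 alone.

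The order of the family's levels in FPKM differed between the groups at the place of Ifitm6. In hormone libraries it ran Ifitm3, Ifitm6, Ifitm2, Ifitm1 and Ifitm10, with means of 1574, 1462, 465, 61.3 and 3.43 FPKM. The ranges of Ifitm3 and Ifitm6 overlapped there, and those of the other neighbours in the order did not. In control libraries it ran Ifitm3, Ifitm2, Ifitm1, Ifitm6 and Ifitm10, with means of 837, 448, 40.5, 14.3 and 9.43 FPKM, and the ranges of Ifitm6 and Ifitm10 overlapped. Ifitm6 exceeded Ifitm3 in hormone 2 alone, by a ratio of 1.62, against 0.565 in hormone 1 and 0.731 in hormone 3. In control libraries the ratio was 0.00908, 0.0203 and 0.0264. Ifitm6 made up 30.2%, 54.1% and 35.3% of the summed FPKM of the 5 members in hormone libraries 1 to 3. Its part was 0.577%, 1.21% and 1.64% in control libraries. The table's FPKM implies gene lengths of 288 nt for Ifitm6 and 700 nt for Ifitm3, so their FPKM order rests on these gene models. In raw counts Ifitm3 was ahead of Ifitm6 in every library. The family took 0.186%, 0.196% and 0.179% of all counts in hormone libraries and 0.118%, 0.08% and 0.078% in control libraries.

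Other family genes of the table were almost silent. Ifitm5 had 4, 0 and 5 counts in hormone libraries and 5 in each control library. Ifitm7 had 1 count in each of the 6 libraries. Neither could be tested, and 3 counts, the limit that a count of 0 allows, correspond to 0.182 to 0.234 CPM per library. RefSeq lists 6 further Ifitm pseudogenes in rat. The sources used here do not say how reads shared between such copies were counted, so the split of reads within the family is uncertain.

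In the table's own coordinates, for which the sources used here name no build, Ifitm5, Ifitm2, Ifitm1, Ifitm3 and Ifitm6 follow each other on chromosome 1. Ifitm2 (ENSRNOG00000014936) lies at 213750192 to 213751405 and Ifitm1 (ENSRNOG00000004273) at 213766758 to 213767815. Ifitm3 (ENSRNOG00000015078) lies at 213810696 to 213811901, and Ifitm6 (ENSRNOG00000036645) begins 5.41 kb further, at 213817312 to 213818222. Ifitm10 (ENSRNOG00000020164) lies apart at 215515764 to 215536980.

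Of 30 other genes with a start within 200 kb of the 4 clustered members, 19 had too few counts to be tested. Of the 11 tested, 2 rose and 0 fell, where 2.39% of all genes tested rose and 0.886% fell. The 11 had a median log2 fold change of 0.09 against 0.00 over all genes tested. B4galnt4, a glycosyltransferase gene whose start lies 53.2 kb from that of Ifitm6, had 17.6, 25.1 and 6.95 CPM in hormone libraries and 4.28, 2.31 and 2.57 CPM in control libraries. It rose by 2.44 ± 0.48 on the log2 scale (SE; edgeR adjusted p = 0.043), and without any 1 library except hormone 3 it did not pass (adjusted p up to 0.131). RGD1309350, listed in RefSeq as Urah, an enzyme of urate breakdown, had 77.7, 77.9 and 69.7 CPM in hormone libraries and 32.7, 28.2 and 25.6 CPM in control libraries. Its log2 fold change was 1.38 ± 0.13 (edgeR adjusted p = 0.00607). Between these, Pgghg, Psmd13, Sirt3, Ric8a, Bet1l and Scgb1c1 had log2 fold changes from -0.07 to 0.28, and on the side of B4galnt4, Pkp3, Sigirr and Ano9 had 0.01, -0.28 and 0.54. Around Ifitm10, 0 of 4 genes tested passed with edgeR (median log2 fold change -0.58), among them Ctsd, the protease cathepsin D, at -0.08, Mrpl23 at -0.63, Lsp1 at -0.54 and Tnnt3 at -0.93.

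**Figure D2:**
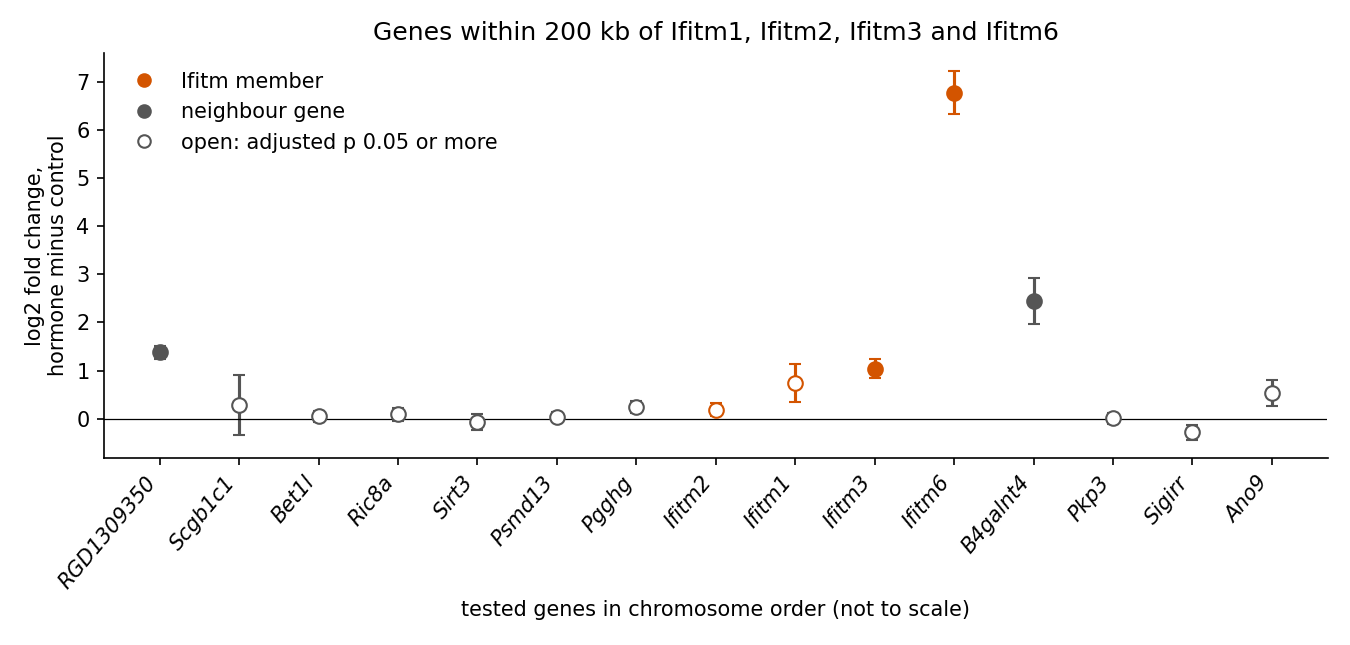
Log2 fold change, hormone minus control, with SE whiskers, of the tested genes within 200 kb of the 4 clustered members, in chromosome order and not to scale; orange marks Ifitm members and open symbols genes that did not pass. Ifitm6 lay at 6.77, B4galnt4 at 2.44, and the other neighbours except RGD1309350 between -0.28 and 0.54.

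Interferon ligands were near or at 0 in the table, and the receptors showed 1 change. Ifnb1, Ifna1, Ifna2, Ifna4, Ifna5, Ifne, Ifnk, Ifnl1 and Ifnl3 were listed at 0 counts in all libraries. How shared reads were counted is not given, so these values do not show absent transcripts. Ifng, interferon gamma, had 5, 2 and 0 counts in hormone libraries and 0, 0 and 2 in control libraries. Of 6 receptor genes tested, 0 rose and 1 fell, where 2.39% of all genes tested rose and 0.886% fell. Ifngr1, the ligand-binding chain of the interferon gamma receptor, had 222, 207 and 231 CPM in hormone libraries and 397, 390 and 408 CPM in control libraries. The groups stood well apart (log2 fold change -0.86 ± 0.11, edgeR adjusted p = 0.0129), but Ifngr1 did not pass without control 2 or any 1 hormone library (adjusted p up to 0.0723). Ifnar1, of the type I receptor, had a log2 fold change of 0.31 (adjusted p = 0.16).

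Among 19 signal transducers, 2 rose and 0 fell, where 2.39% of all genes tested rose and 0.886% fell. Of the 19, 18 had a positive log2 fold change, against 49.9% of all genes. Their median was 0.70, against 0.00 over all genes tested. Hormone 1 was the highest hormone library for 14 of the 19, against 36.7% of all genes, and without it the median was 0.40. Stat3, a factor shared by many cytokine receptors, had 252, 212 and 222 CPM in hormone libraries and 126, 147 and 148 CPM in control libraries (log2 fold change 0.70 ± 0.12, edgeR adjusted p = 0.0314). Jak2, the kinase on the interferon gamma receptor and on several hormone and cytokine receptors, had 145, 114 and 101 CPM in hormone libraries and 74.0, 62.4 and 56.8 CPM in control libraries (0.90 ± 0.17, adjusted p = 0.034). Without control 2 or any 1 hormone library neither passed, nor did Jak2 without control 3, with an adjusted p of up to 0.124 for Stat3 and up to 0.113 for Jak2. The count was 7 higher and 1 lower with DESeq2 and 0 with limma on log2(FPKM + 1). Of all genes, DESeq2 called 6.48% higher and 4.42% lower, and limma 1.17% and 0.856%.

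Other interferon-induced genes moved with hormone library 1, which Ifitm6 did not. All 49 tested had a positive log2 fold change, as did 49.9% of all genes tested. The 49 ran from 0.01 to 3.15, with a median of 1.12. With edgeR 1 rose and 0 fell, where 2.39% of all genes tested rose and 0.886% fell. DESeq2 called 22 higher and 0 lower, against 6.48% and 4.42% of all genes, and limma on log2(FPKM + 1) called 0. At an unadjusted p under 0.05, 29 were higher and 0 lower, against 12.1% and 10.6% of all genes. Lgals3bp, a secreted glycoprotein, had 323, 148 and 135 CPM in hormone libraries and 58.7, 77.7 and 54.0 CPM in control libraries (log2 fold change 1.67 ± 0.35, edgeR adjusted p = 0.0496). That call was lost without any 1 library (adjusted p up to 0.129). Cxcl9, a chemokine induced by interferon gamma, had 55.0, 19.7 and 22.8 CPM in hormone libraries and 11.5, 9.11 and 8.98 CPM in control libraries (adjusted p = 0.062). For 48 of the 49 genes hormone 1 was the highest hormone library, a place it held for 36.7% of all genes tested. Ifitm3 and Ifitm1 were also highest in hormone 1, while Ifitm6 was highest in hormone 2 and Ifitm2 and Ifitm10 in hormone 3. Without hormone 1 the list's median was 0.56, while the log2 fold change was 6.99 for Ifitm6 and 0.98 for Ifitm3.

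**Figure D3:**
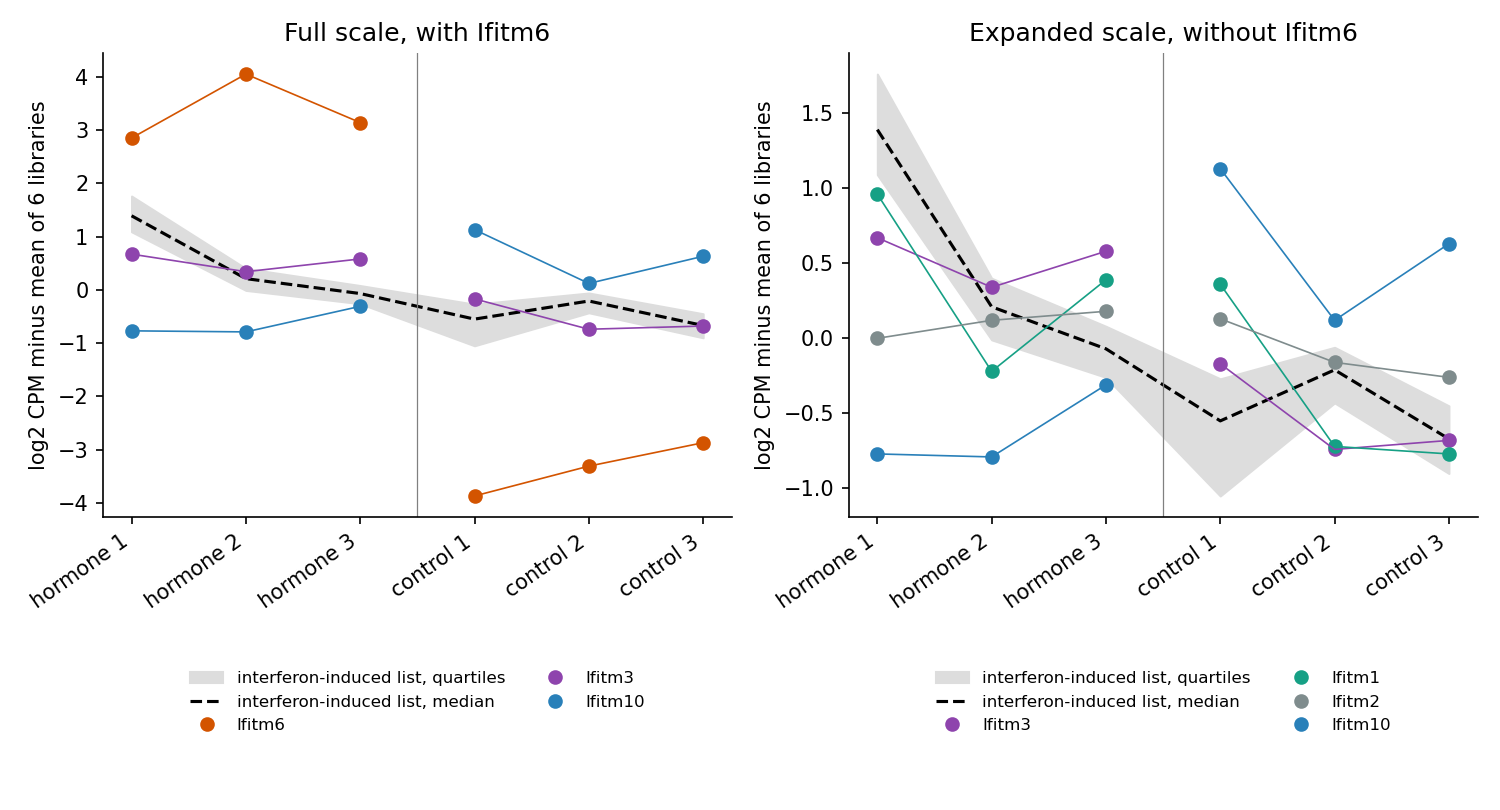
Log2 CPM of a member minus its own mean over the 6 libraries, for Ifitm6, Ifitm3 and Ifitm10 at left and, on an expanded scale, for the members other than Ifitm6 at right; the dashed line and grey band are the median and quartiles of 49 other interferon-induced genes, and lines only guide the eye. The list's median peaked at 1.39 in hormone 1 and was 0.21 and -0.07 in hormone 2 and 3, where Ifitm6 stood at 4.05 and 3.14.

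In 3 further lists, of genes that act on, beside or like Ifitm proteins, edgeR called 0 genes and DESeq2 called a few. Of all genes tested, edgeR called 2.39% higher and 0.886% lower, or 12.1% and 10.6% at an unadjusted p under 0.05. DESeq2 called 6.48% higher and 4.42% lower, and limma on log2(FPKM + 1) 1.17% and 0.856%. Of 19 other antiviral restriction factors tested, 0 passed with edgeR, with 9 higher and 0 lower at an unadjusted p under 0.05. DESeq2 called 3 higher and limma 0, and the median was 0.46. Hormone 1 was the highest hormone library for 15 of the 19, against 36.7% of all genes, and without it the median was 0.30. Zc3hav1, the antiviral zinc finger protein ZAP, had a log2 fold change of 0.42 (adjusted p = 0.0811), and Adar, an RNA editing enzyme, had 0.80 (adjusted p = 0.128). Of 17 Ifitm modifiers and partners, such as palmitoyl transferases and the ubiquitin ligase Nedd4, 0 passed with edgeR, with 1 higher and 2 lower at an unadjusted p under 0.05, 1 with DESeq2, 0 with limma, and a median of -0.08. Setd7, a lysine methyltransferase that modifies IFITM3 in human cells, had 54.5, 57.4 and 59.0 CPM in hormone libraries and 24.5, 34.8 and 40.5 CPM in control libraries (0.77 ± 0.18, edgeR adjusted p = 0.0668). Atp6v0b, a subunit of the proton pump of endosomes, had -0.32 (adjusted p = 0.139). Of 4 tested genes from the wider CD225 protein superfamily, to which Ifitm genes belong, 0 passed with edgeR, with 0 higher and 1 lower at an unadjusted p under 0.05, 1 lower with DESeq2 and 0 with limma. Prrt2, a presynaptic membrane protein, had -1.49 ± 0.31 (edgeR adjusted p = 0.0504) and Trarg1, linked to glucose transporter traffic in fat cells, -0.73 (adjusted p = 0.254).

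**Figure D4:**
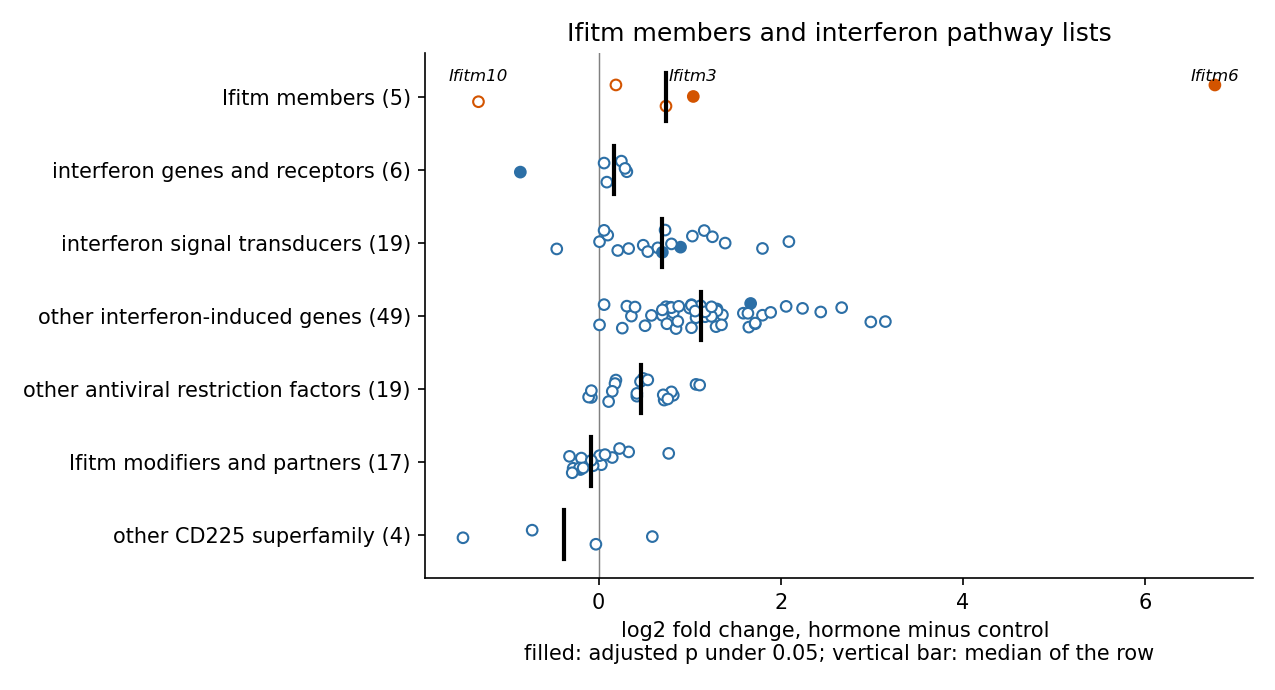
Log2 fold change, hormone minus control, of the 5 Ifitm members and of the tested genes of 6 lists, with filled points for an adjusted p under 0.05 and a vertical bar at each median. Ifitm6 lay at 6.77 and the 49 other interferon-induced genes between 0.01 and 3.15.

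Cell type markers were set beside these values. Of all genes tested, edgeR called 2.39% higher and 0.886% lower, or 12.1% and 10.6% at an unadjusted p under 0.05. DESeq2 called 6.48% higher and 4.42% lower, and limma on log2(FPKM + 1) 1.17% and 0.856%. The edgeR log2 fold change was positive for 49.9% of all genes tested, and hormone 1 was the highest hormone library for 36.7%. Luminal epithelial markers summed to 3929 to 4100.3 CPM in hormone libraries and 2937 to 3814 CPM in control libraries. Of these 8 markers 1 rose, Krt8 (log2 fold change 0.95, edgeR adjusted p = 0.0164, not past it without control 2 or any 1 hormone library, adjusted p up to 0.0821). At an unadjusted p under 0.05 with edgeR, 5 of them were higher and 1 lower, with 3 higher by DESeq2 and 1 by limma. Macrophage and monocyte markers summed to 1039 to 1790.1 CPM in hormone libraries and 489 to 982 CPM in control libraries. Their 12 log2 fold changes were all positive (median 1.06), and 0 passed with edgeR, with 9 higher at an unadjusted p under 0.05, 2 with DESeq2 and 0 with limma. Hormone 1 was the highest hormone library for 11 of the 12. For Cd68, a macrophage gene, the log2 fold change was 1.40 (adjusted p = 0.0859), and for Csf1r, a growth factor receptor of macrophages, 1.14 (adjusted p = 0.136). Neutrophil markers summed to 5.01 to 7.08 CPM in hormone libraries and 1.60 to 3.95 CPM in control libraries, with Elane at 0. Of these 8 markers 2 were tested with edgeR, S100a9 and Csf3r, with log2 fold changes of 1.74 and 1.28. Both were higher at an unadjusted p under 0.05, and 0 markers passed with edgeR, DESeq2 or limma. General leukocyte markers summed to 146 to 263 CPM in hormone libraries and 70.5 to 109 CPM in control libraries, with 0 of 4 past edgeR's test, 4 at an unadjusted p under 0.05, 2 with DESeq2 and 0 with limma. Endothelial markers summed to 131 to 172 CPM in hormone libraries and 74.2 to 133 CPM in control libraries, and 1 of 6 rose, Kdr, a receptor for vascular growth factor (1.07, adjusted p = 0.0444). Kdr did not pass without control 2 or 3 or any 1 hormone library (adjusted p up to 0.132), nor with upper quartile scaling (adjusted p = 0.0526). Smooth muscle markers summed to 3682 to 5207 CPM in hormone libraries and 3881 to 8099.8 CPM in control libraries, with 0 of 5 past edgeR's test, DESeq2, limma or an unadjusted p under 0.05. Fibroblast markers summed to 2928 to 3888 CPM in hormone libraries and 2532 to 5062 CPM in control libraries. With edgeR 0 of 5 passed (0 higher and 2 lower at an unadjusted p under 0.05, 1 lower with DESeq2, 0 with limma), and Lum, a matrix proteoglycan, had -1.18 (adjusted p = 0.0596). Basal epithelial markers summed to 276 to 452 CPM in hormone libraries and 395 to 702 CPM in control libraries (median log2 fold change -0.72), with 0 of 3 past edgeR, DESeq2 or limma and 2 lower at an unadjusted p under 0.05.

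T and NK cell markers summed to 60.4 to 111 CPM in hormone libraries and 32.5 to 57.2 CPM in control libraries. The 7 tested had positive log2 fold changes (median 0.96) and were all highest in hormone 1. Of these, 0 passed edgeR, DESeq2 or limma, with 3 higher at an unadjusted p under 0.05. Over all genes tested, 49.9% were positive, 36.7% were highest in hormone 1 of the hormone libraries and 12.1% were higher at that p. B and plasma cell markers summed to 6.32 CPM or more in hormone libraries, highest in hormone 1, and to 1.16 to 2.71 CPM in control libraries. Of these, Jchain, the joining chain of secreted antibodies, was the gene tested. It had 14.7, 3.92 and 5.94 CPM in hormone libraries and 2.00, 1.64 and 0.898 CPM in control libraries, a log2 fold change of 2.44 (edgeR adjusted p = 0.0603), and DESeq2 called it higher.

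Secretory genes of the prostate summed to 80439.8 to 109423 CPM in hormone libraries and 68206 to 122169 CPM in control libraries, nearly all of it Tgm4, a prostate transglutaminase, at -0.04. Of the 4 tested, 1 rose and 0 fell with edgeR, where 2.39% of all genes tested rose and 0.886% fell. Sbp, spermine binding protein, had 25.0, 88.1 and 35.1 CPM in hormone libraries and 1.43, 1.21 and 2.95 CPM in control libraries (log2 fold change 4.72 ± 0.59, edgeR adjusted p = 0.0119). It was highest in hormone 2, and it did not pass without control 2 (adjusted p = 0.0636). Msmb, a secreted prostate protein, had -1.61 (edgeR adjusted p = 0.128) and was called lower by DESeq2, while Pbsn, rat probasin, was listed at 0. Seminal vesicle markers summed to 4569.8, 8971 and 3481 CPM in hormone libraries 1 to 3 and to 4074, 1121 and 23733 CPM in control libraries 1 to 3. Control 3 stood far above the other libraries through Semg1, a semen protein, while Svs4 and Svs5 were listed at 0. The part of these cells and secretions in the Ifitm values was not tested.

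Genes with the profile most like each member were found by the root mean square distance between centred log2 CPM values over the 6 libraries, among 12616 genes with an established symbol. For Ifitm6 these were Prr32, Gcnt3, C2cd4b, Hapln2 and Rbp7, at distances of 0.81 to 0.95. None of them shared its peak in hormone 2. Prr32, Gcnt3, C2cd4b and Hapln2 were highest in hormone 1 and Rbp7 in hormone 3. Ifitm3 was nearest to Fam167b, Aspm, Pim3, Gpr34 and Cdca8 (0.10 to 0.14). Ifitm1 was nearest to Prss22, Cd226, Slfn13, Ada and Dapp1 (0.18 to 0.21), and Ifitm10 to Slc24a3, Slc2a4, Cytl1, Kcnip1 and P2rx2 (0.13 to 0.21). Ifitm2, which moved little, was within 0.04 of Sirpa, Klhl2, Ap2m1, Ankrd22 and Fam118b. Between members the distance was smallest for Ifitm3 and Ifitm1 (0.35), while Ifitm6 was at 2.89 from Ifitm3 and 4.03 from Ifitm10. These distances share the libraries and the group difference, and they are a description.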

How the data were processed

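The authors deposited raw read counts per gene and FPKM for the same 6 libraries. The submitters' processing notes name HTSeq, TopHat and Bowtie2. The sources used here give no version, genome build, strand setting or treatment of shared reads. The labels name a TruSeq paired-end library. Total counts were 13744680 to 15949500 in hormone libraries and 12931982 to 15809858 in control libraries. The deposited FPKM was the count rescaled by length and library total, within 0.00576% over 12946 genes with at least 10 counts in every library.

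The test was edgeR 4.0.16 under R 4.3.3 on the counts (filterByExpr with minimum count 10, TMM, robust quasi-likelihood F-test, 4 residual degrees of freedom, Benjamini-Hochberg over 14003 genes, threshold 0.05). It was checked on simulated data. SE is the log2 fold change over the square root of F. Alternatives were DESeq2 1.42.0, limma 3.58.1 on log2(FPKM + 1) and log2(FPKM + 0.1), upper quartile scaling, no filter, a replicate block and each library left out. Floors cover counting error only.

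Promoter windows are from RefSeq (GRCr8), aligned with Biopython 1.88. Protein sequences were not used here. Members and lists were chosen with earlier results of these data known. Genes were named as the members, the list genes with the smallest p (up to 4 of those past the test, otherwise 2), neighbours within 200 kb and the 5 nearest profiles per member. Some genes of the cell type marker lists that met this rule are not named in the text. The values of a gene named outside this rule had been seen before it was chosen.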

Additional observations from a re-analysis of the deposited data

How the results depend on the processing

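The members were picked on this contrast, so their values under the 12 alternatives are a description and no sign of stability. Ifitm6 had log2 fold changes from 6.34 to 7.05, past the threshold in each. Ifitm2 and Ifitm1 passed in none. Ifitm3 did not pass with limma on log2(FPKM + 1) or log2(FPKM + 0.1), at 0.94 in both, where the median of all genes was -0.10 and -0.12, and it ranged from 0.94 to 1.25 with 1 library left out. Ifitm10 passed with DESeq2 alone, at -1.31. Over all genes edgeR called 334 higher and 124 lower, DESeq2 906 and 618, and limma 172 and 126, or 175 and 128 with the smaller constant. With 1 library left out the counts were 51 to 313 higher and 12 to 156 lower. Each of those fits has fewer samples. Without control 2 they were 51 and 13, without hormone 1 98 and 21, without hormone 2 102 and 12, and without hormone 3 98 and 13. DESeq2 called 7 transducers higher and 1 lower, 22 interferon-induced genes and 3 restriction factors higher, 1 Ifitm partner higher and 1 CD225 gene lower. Limma with either constant called 0 transducers and 0 interferon-induced genes. Without the filter 0 interferon-induced genes passed, and with upper quartile scaling 1 CD225 gene was lower. With 1 library left out 0 to 2 transducers, 0 or 1 interferon-induced gene and 0 or 1 Ifitm partner were higher, and 0 or 1 receptor and 0 or 1 CD225 gene were lower. Some genes that edgeR did not call changed sign, and none of them passed there. With limma on log2(FPKM + 1) and log2(FPKM + 0.1), Bet1l and Psmd13 had -0.08, Ric8a -0.04 and Pkp3 -0.10 and -0.11, and Pkp3 had -0.02 with upper quartile scaling. Semg1, a seminal vesicle marker at -0.75, had 0.05 with limma and 0.20 with the replicate block. With 1 library left out, the range was -0.11 to 1.10 for Scgb1c1, -0.01 to 0.10 for Bet1l, 0.00 to 0.17 for Ric8a, -0.03 to 0.09 for Psmd13, -0.04 to 0.08 for Pkp3, -0.17 to 0.04 for Ctsd and -1.28 to 1.20 for Semg1. The causes were not tested.

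The titles do not say whether the replicate numbers pair the libraries. The deviations of same-numbered libraries correlated at 0.083, -0.057 and 0.07, and those of differently numbered libraries at -0.165 to 0.12. With 3 libraries per group these values cannot settle whether libraries were paired. The replicate block gave 228 higher and 80 lower genes. Of the genes named by the rule, Stat3, Lgals3bp and B4galnt4 did not pass under the block, Cxcl9 did (adjusted p = 0.0492 with edgeR), and the calls of the 5 members did not change.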

Other observations

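Ifit1, an interferon-induced gene that blocks translation of viral RNA, went against its list in the library where the list was highest. It was singled out after its values were seen. It had 0, 8.72 and 6.64 CPM in hormone libraries 1 to 3 and 3.28, 0.0607 and 5.33 CPM in control libraries. Its relatives Ifit2 and Ifit3 had 49.7, 13.4 and 9.85 CPM and 27.0, 5.52 and 4.69 CPM in hormone libraries, against 11.1, 17.4 and 7.51 CPM and 4.21, 7.71 and 2.57 CPM in control libraries. Hormone 1 was thus highest for both relatives and at 0 for Ifit1. The sources used here do not say how reads shared between related genes were counted. The cause of the Ifit1 values was not tested.

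Beyond Ano9, on the side of Ifitm6, genes up to the edge of the 200 kb window were listed at 0 counts in all 6 libraries. Rplp2, which encodes a protein of the ribosome that every cell uses, was among them, so a 0 in this stretch of the table does not show an absent transcript.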
